A study of Mus musculus with 2 samples.

Results

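The 10 genes described here encode the ligands of transforming growth factor beta (Tgfb1, Tgfb2, Tgfb3), their receptors (Tgfbr1, Tgfbr2, Tgfbr3) and 4 regulators of SMAD signalling (Smad3, Smad6, Smad7, Skil). They were chosen by gene symbol, with results of these data known, and each symbol matched 1 of the 34745 gene models measured. RNA-seq had been done on haematopoietic stem and progenitor cells from femoral marrow of C57BL/6 mice given 5-fluorouracil, which had been enriched for progenitors, exposed to concentrated lentivirus, sorted for transduced cells and sequenced. The WT group (1 library, 17606168 counts) carried wild-type PML/RARa, a fusion oncoprotein of promyelocytic leukaemia in which PML is joined to a retinoid receptor, and the 2KR group (1 library, 20462011 counts) carried the form labelled 2KR, a name that the labels do not spell out. Both groups shared the 5-fluorouracil, 6 µg/ml polybrene, a spin of 40 min at 1800 rpm, and medium with hydrocortisone, 20% serum and 3 cytokines (stem cell factor at 50 ng/ml, and IL-3 and IL-6 at 10 ng/ml each). The viral vector is labelled pMSCV. The labels give neither the age of the mice nor how many of them were pooled for a library.

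TGF-beta ligands are secreted in a latent complex and, once released, bind TGFBR2, which phosphorylates and activates TGFBR1. TGFBR1 then phosphorylates SMAD2 and SMAD3, which enter the nucleus with SMAD4, and the inhibitory SMADs and the corepressor SnoN (the product of Skil) limit the response. In marrow the pathway is known for holding stem cells in quiescence, and a cytoplasmic form of PML is known to take part in it.

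Because each form had 1 library, there is no replicate check and no p-value, and every difference describes these 2 libraries. Neither is from cells without PML/RARa, so which form departed from such cells cannot be told. Levels are given as counts, as CPM (counts relative to the TMM-scaled library total, for the same gene between libraries) and as the deposited FPKM (scaled also to gene length, for levels between genes). Each fold is a ratio of CPM with its exact 95% Clopper-Pearson interval, which covers counting error only. A model was called different when its log2 ratio of CPM + 1, 2KR over WT, was at least 1 in size, among the 12466 models whose mean reached 1 CPM, called tested below. In bulk RNA, fewer cells that express a gene and less RNA per cell cannot be told apart.

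The labelled cell type was checked on 12 progenitor genes, Kit, Cd34 and Gata2 among them, and 12 of 12 were at 1 CPM or more in both libraries, with summed levels of 4659.7 (WT) and 4726 CPM (2KR). Of the 12, 0 were called, but they moved in both directions. Cd34 had a ratio of 1.86 (1.81 to 1.92) and Flt3 of 1.81 (1.58 to 2.08). Gata2 had 0.655 (0.638 to 0.674) and Ly6a 0.661 (0.621 to 0.703). Genes of other lineages moved between the libraries as well. Of 10 mast cell and basophil genes 6 were called lower in 2KR and 1, Mcpt8 (190 and 450 CPM), higher. Over all tested models 4.56% were called lower and 2.66% higher. Of the 6, Prss34 (82 and 0 counts), Cma1 (62 and 2) and Ms4a2 (66 and 18) passed the filter only through WT. Summed levels were 6434 CPM in WT and 3350.0 in 2KR, mostly from Cpa3 (5468 and 2525). Fcer1a was at 0 counts in both, and Tpsb2 and Mcpt4 were below the filter. The sums in WT and 2KR were 1040 and 1359 CPM for 8 megakaryocyte genes, with Pf4 and Ppbp called higher, and 632 and 832 for 7 endothelial genes, with Esam called higher and Emcn at 0 in both. The 10 stromal genes summed to 699.6 and 769 CPM, nearly all of it from Pdgfrb (543 and 451) and Thy1 (152 and 314), which moved in opposite directions, and Thy1 was called higher. The 10 monocyte genes summed to 255 and 115 CPM, with Cx3cr1 (101 and 20.7) and Ccr2 (118 and 56.2) called lower and Ly6c2 (0.858 and 6.31) called higher. The sums were 8.98 and 7.33 CPM for 8 lymphocyte genes (Cd3e at 0 in both) and 15.8 and 26.0 for 6 erythroid genes (Hbb-bs at 0 in both). The part of these shifts in the values below was not tested.

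Among the 10 genes, the Tgfb2 transcript was nearly absent in 2KR and present in WT, while Tgfb1, the most abundant ligand, was at the same level within counting error. Tgfbr3 was 1.84-fold lower in 2KR, Smad3 was 1.55-fold higher, and Smad6 was 3.56-fold higher at a very low level. Of the 10 genes 1 was called lower, Tgfb2, against 4.56% of all models, and 0 were called higher, against 2.66%. The counting interval lay wholly below a ratio of 1 for 4 genes (28.5% of all models) and wholly above it for 4 (31.6% of all models), and it held 1 for Tgfb1 and Skil. The median log2 ratio was 0.11, beside 0.02 over all models. All 10 passed the filter on low values, Tgfb2 through its WT level and Smad6 through its 2KR level.

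**Figure D1:**
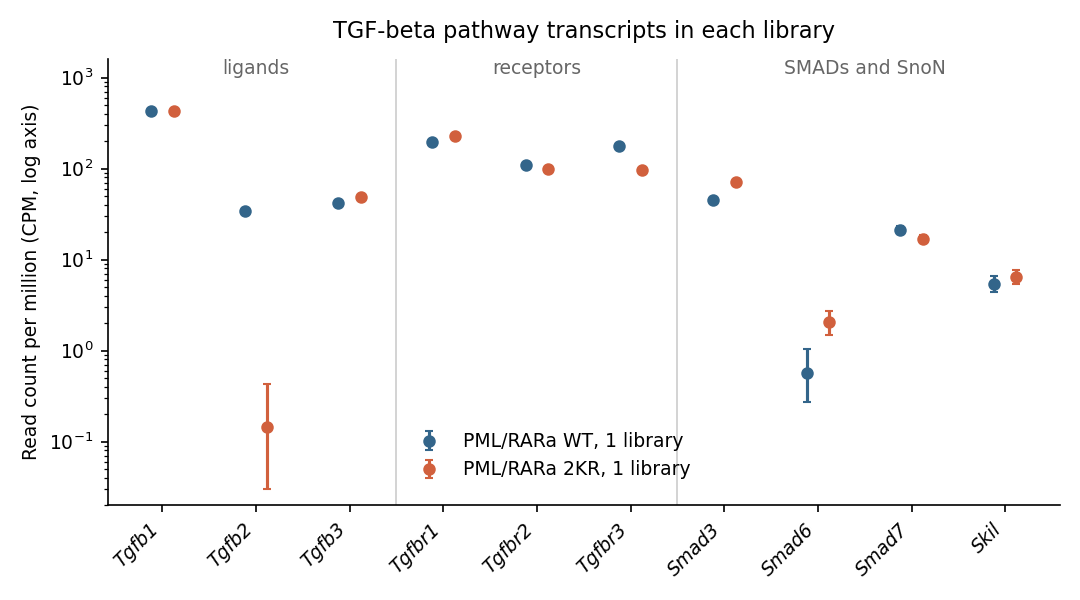
CPM on a log axis for the 10 genes, 1 point per library (blue WT, orange 2KR), with bars for the exact 95% Poisson interval of the count. Tgfb2 goes from 34.5 CPM in WT to 0.146 in 2KR, while the points of the other ligands lie close together.

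Tgfb1 encodes the main TGF-beta isoform of blood cells. The WT count was 7481 and the 2KR count 8954, equal to 428 and 435 CPM (ENSMUSG00000002603, chromosome 7, 25687002 to 25705077, GRCm38). The ratio was 1.02 (0.985 to 1.05), and its log2 value of 0.02 lay near the middle of all models.

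Tgfb2 encodes an isoform best known from heart and eye development, which needs a co-receptor for strong binding to TGFBR2. Its count was 604 with the WT form and 3 with 2KR, equal to 34.5 CPM (WT) and 0.146 CPM (2KR) (ENSMUSG00000039239, chromosome 1, 186622792 to 186705989). The level was 237-fold lower in 2KR, with counting limits of 80.8 and 1154, and 3 of 12466 models had a log2 ratio below its -4.96. The 3 counts sit at the floor of what this depth can tell from 0.

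Tgfb3, the third isoform, was counted 732 times with WT and 993 times with 2KR, equal to 41.9 and 48.2 CPM (ENSMUSG00000021253, chromosome 12, 86056744 to 86079041). The ratio was 1.15 (1.05 to 1.27), under the call. Its model overlaps Ttll5, a tubulin-modifying enzyme gene on the opposite strand with 814 and 953 counts. Without known strandedness, reads from the stretch that both models cover, 86056744 to 86061893, could not be told apart by strand. Here and below, overlap was read from whole model spans and not from exons.

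In FPKM, which allows levels to be compared between genes, the sum of the 3 ligands was 90.5 in WT and 91.0 in 2KR. Tgfb1 made up 82.3% of it in WT and 84.2% in 2KR. Tgfb3 made up 13.6% and 15.8%. Tgfb2 made up 4.17% in WT and 0.0177% in 2KR, so the summed ligand level was nearly the same in both libraries. With lengths from GENCODE M21 exons in place of the authors' lengths, the share of Tgfb2 was 5.78% in WT and 0.025% in 2KR.

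**Figure D2:**
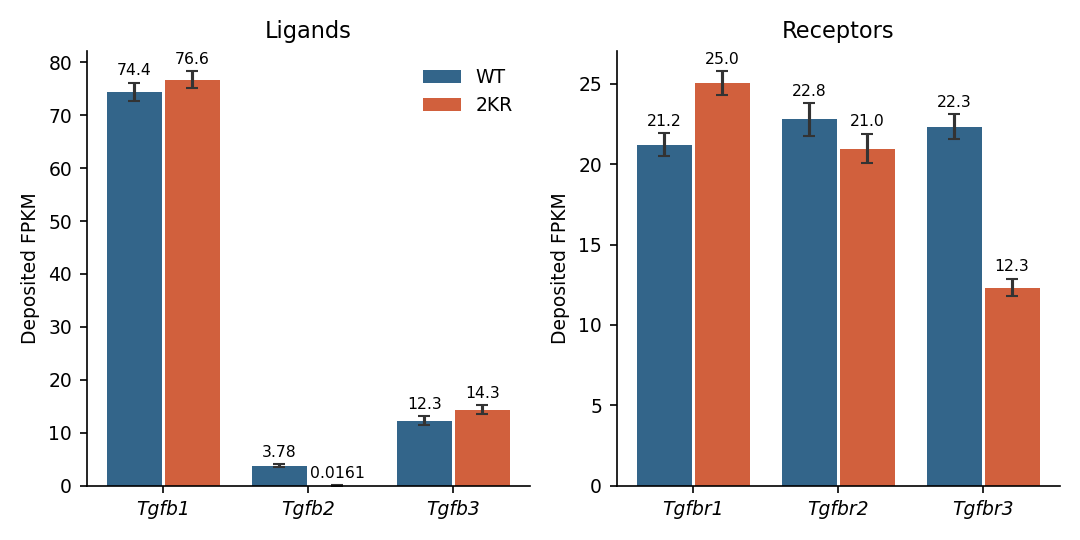
Deposited FPKM of the 3 ligands (left) and 3 receptors (right) in WT (blue) and 2KR (orange), with exact 95% Poisson intervals of the counts on the FPKM scale. Tgfb1 stands at 74.4 and 76.6, Tgfb2 at 3.78 and 0.0161, and Tgfbr3 at 22.3 and 12.3.

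The coding sequences of the 3 isoforms were compared for identical runs that could let reads match more than 1 of them. The longest run shared by Tgfb2 and Tgfb3 was 15 bases, gctcaccagcccccc, at bases 147 to 161 of the Tgfb2 and 156 to 170 of the Tgfb3 coding sequence in GENCODE M21. For Tgfb1 and Tgfb2 it was 10 bases, and for Tgfb1 and Tgfb3 it was 15.

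The 250 bases before the start site are shown for Tgfb2 and Tgfb1, the ligand that was far lower in 2KR and the one whose interval holds 1, from RefSeq on GRCm38.p6, 5′ to 3′ on the gene's strand (Tgfb2, chr1:186705990-186706239, minus strand; Tgfb1, chr7:25686752-25687001, plus strand). Capitals mark the SMAD box CAGAC and the GC box GGGCGG on either strand.
Tgfb2: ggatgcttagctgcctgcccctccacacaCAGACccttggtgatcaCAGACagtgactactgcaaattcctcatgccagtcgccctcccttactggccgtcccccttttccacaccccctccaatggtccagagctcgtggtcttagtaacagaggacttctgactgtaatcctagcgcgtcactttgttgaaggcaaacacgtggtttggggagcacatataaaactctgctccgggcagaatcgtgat
Tgfb1: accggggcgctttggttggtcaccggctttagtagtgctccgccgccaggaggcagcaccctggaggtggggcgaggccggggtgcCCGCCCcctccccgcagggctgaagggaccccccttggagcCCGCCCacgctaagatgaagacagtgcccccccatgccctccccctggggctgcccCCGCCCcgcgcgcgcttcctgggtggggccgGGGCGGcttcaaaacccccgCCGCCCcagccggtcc
The Tgfb2 window held 2 SMAD boxes, 0 GC boxes and 8 CG dinucleotides at 53.6% GC. The Tgfb1 window held 0 SMAD boxes, 5 GC boxes and 21 CG dinucleotides at 75.2% GC. Over 32851 promoter windows of this length, 42.2% held a SMAD box and 32.7% a GC box, and the medians were 6 CG dinucleotides and 52.4% GC. Promoters of 6 of the 10 genes were matched in the table, and those of Tgfb3, Tgfbr3, Smad7 and Skil were not. A match in such a window describes letters and not a bound site.

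Expressed neighbours of Tgfb2 did not share its difference. Of 7 other tested models within 1.5 Mb on either side, 0 were called, and their log2 ratios ran from -0.28 to 0.50. The nearest of them, the ribosome biogenesis gene Rrp15, 15.0 kb from the Tgfb2 start, was counted 223 and 380 times, and its ratio of 1.45 (1.22 to 1.71) was in the other direction. Eprs, a tRNA synthetase gene 1194 kb away, had a ratio of 1.18 (1.14 to 1.23). Of the other named neighbours, Lyplal1 had 4 and 0 counts, Slc30a10 3 and 0, Spata17 2 and 4, and D1Pas1 0 and 0. Gm29491, an antisense model over the Tgfb2 start, had 2 and 0 counts.

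**Figure D3:**
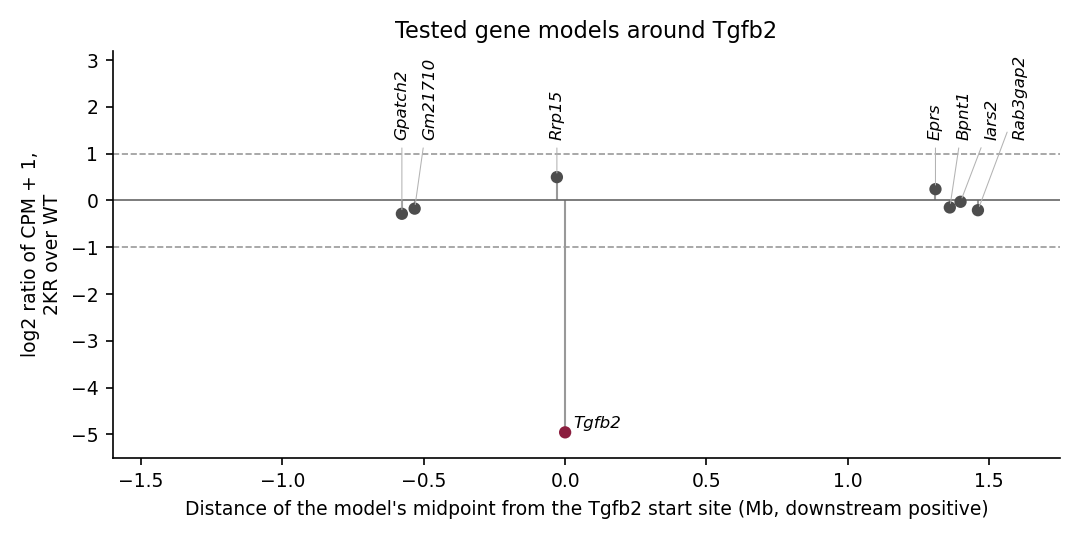
The log2 ratio of CPM + 1 (2KR over WT) for each tested model around Tgfb2, by distance of its midpoint from the Tgfb2 start site in Mb (downstream positive). Dashed lines mark a ratio of 2-fold. The 7 other models lie between -0.28 and 0.50, and Tgfb2 lies at -4.96.

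The signalling receptors were close between the libraries and the co-receptor was lower in 2KR. Tgfbr1, the type I receptor kinase that phosphorylates SMADs, was counted 3407 times with WT and 4679 times with 2KR, equal to 195 and 227 CPM (ENSMUSG00000007613, chromosome 4, 47353222 to 47414931). Its ratio was 1.17 (1.11 to 1.22). Tgfbr2, the type II receptor that binds the ligand, had 1920 and 2053 counts, or 109.8 and 99.6 CPM (ENSMUSG00000032440, chromosome 9, 116087698 to 116175363). Its ratio was 0.907 (0.852 to 0.966), so the 2 kinases differed in direction by small amounts.

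Tgfbr3 encodes betaglycan, the co-receptor that presents TGF-beta 2 in particular to TGFBR2. The WT library gave 3071 counts and the 2KR library 1970, equal to 176 and 95.6 CPM (ENSMUSG00000029287, chromosome 5, 107106570 to 107289629). It was 1.84-fold lower in 2KR (1.74 to 1.95), a log2 ratio of -0.87 that 5.66% of all models lay below, and it was not called at 2-fold. At 1.5-fold, 2 of the 10 genes were lower, Tgfb2 and Tgfbr3, against 9.67% of all models, and 2 were higher, Smad3 and Smad6, against 6.92%, with 16.6% of all models past 1.5-fold in either direction. Of the small models that overlap Tgfbr3, Gm43422 had 14 and 18 counts, Gm43423 0 and 1, and Gm42900 3 and 0.

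In WT the 3 receptors were at nearly the same FPKM. Tgfbr2 was at 22.8 (counting limits 21.8 and 23.8), Tgfbr3 at 22.3 (21.6 and 23.1) and Tgfbr1 at 21.2 (20.5 and 21.9). The limits of neighbours in this order overlapped, which does not show that their levels were equal. In 2KR Tgfbr1 was at 25.05 (24.3 and 25.8), Tgfbr2 at 20.97 (20.1 and 21.9) and Tgfbr3 at 12.3 (11.8 and 12.9), with no overlap. The share of Tgfbr3 in the summed receptor FPKM was 33.7% in WT and 21.1% in 2KR. This order depends on the gene length used: per kb of GENCODE exons, Tgfbr2 was the lowest in both libraries, at 13.4 CPM in WT and 12.2 in 2KR, beside 26.8 and 14.6 for Tgfbr3 and 29.8 and 34.8 for Tgfbr1.

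Smad3, the SMAD that carries the TGF-beta signal to DNA, was counted 799 times with WT and 1458 times with 2KR, equal to 45.7 and 70.8 CPM (ENSMUSG00000032402, chromosome 9, 63646767 to 63757994). The ratio was 1.55 (1.42 to 1.69), above 93.7% of all models and under the 2-fold call. The other receptor-activated SMAD of the pathway, Smad2, was at 51.6 CPM in both libraries, with a ratio of 0.999 (0.913 to 1.09). Smad4, the common partner, had a ratio of 1.12 (1.05 to 1.19).

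Smad6, an inhibitory SMAD that acts mainly on BMP receptors, was counted 10 times with WT and 42 times with 2KR, equal to 0.572 and 2.04 CPM (ENSMUSG00000036867, chromosome 9, 63953076 to 64022059). The ratio was 3.56 with wide limits of 1.76 and 7.97. It was not called, because the log2 ratio with a pseudocount of 1 CPM was 0.95, and with a pseudocount of 0.1 it was 1.67. Smad7, the inhibitory SMAD that blocks TGFBR1, was counted 368 times with WT and 350 times with 2KR, equal to 21.05 and 16.99 CPM (ENSMUSG00000025880, chromosome 18, 75367529 to 75395935). Its ratio was 0.807 (0.695 to 0.937), so the 2 inhibitory SMADs lay on opposite sides of 1.

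Skil encodes SnoN, a corepressor that binds SMADs. Its counts of 95 (WT) and 134 (2KR) equal 5.43 and 6.50 CPM (ENSMUSG00000027660, chromosome 3, 31095058 to 31122577). The ratio was 1.20, and its limits of 0.913 and 1.57 hold 1. Its FPKM of 0.259 in WT and 0.315 in 2KR rests on a length of 20819 bases, 2.15 times that of its GENCODE M21 exons, while this quotient was 0.584 to 1.71 for the other 9 genes.

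In FPKM Smad3 led this group, at 7.92 in WT and 12.4 in 2KR, before Smad7 at 2.71 and 2.21, and Smad6 was at 0.161 and 0.582. In WT Smad6 (limits 0.077 and 0.296) and Skil (0.21 and 0.317) overlapped, and in 2KR Smad6 (0.42 and 0.787) was above Skil (0.264 and 0.373). Per kb of GENCODE exons, Smad6 was below Skil in WT, at 0.178 against 0.561 CPM. In 2KR they did not differ beyond counting error on that scale, at 0.636 (limits 0.458 and 0.86) against 0.671 (0.562 and 0.795).

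Smad3 and Smad6 lie next to each other on chromosome 9, both on the minus strand and 195 kb apart, with no other model of the files between them. Their start regions are shown because these neighbours were both higher in 2KR (RefSeq, GRCm38.p6, 250 bases before the start, minus strand; Smad3, chr9:63757995-63758244; Smad6, chr9:64022060-64022309). Capitals mark the same motifs as above.
Smad3: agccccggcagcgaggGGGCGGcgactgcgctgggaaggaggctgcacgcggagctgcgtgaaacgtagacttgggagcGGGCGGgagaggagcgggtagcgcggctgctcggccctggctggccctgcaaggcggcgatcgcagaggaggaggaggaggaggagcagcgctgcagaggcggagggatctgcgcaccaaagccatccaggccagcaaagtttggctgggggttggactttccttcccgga
Smad6: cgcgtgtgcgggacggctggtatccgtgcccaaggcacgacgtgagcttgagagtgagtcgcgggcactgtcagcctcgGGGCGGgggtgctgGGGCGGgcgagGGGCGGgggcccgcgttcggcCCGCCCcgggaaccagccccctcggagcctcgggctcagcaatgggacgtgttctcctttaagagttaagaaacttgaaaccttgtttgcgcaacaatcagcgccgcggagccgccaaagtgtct
Both windows were rich in CG dinucleotides, with 22 for Smad3 and 27 for Smad6, and held 2 and 4 GC boxes and 0 SMAD boxes. The palindromic SMAD element GTCTAGAC (0.167% of all windows), the cAMP response element TGACGTCA (1.55%), the AP-1 site TGACTCA (4.46%) and retinoic acid elements, direct repeats of AGGTCA with 5 or 2 bases between them (0.00913% each), had 0 matches on either strand in the 4 windows shown. The nearest tested models were Aagab beside Smad3, with a ratio of 1.03 (0.912 to 1.17), and Zwilch beside Smad6, with 1.33 (1.23 to 1.45).

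**Figure D4:**
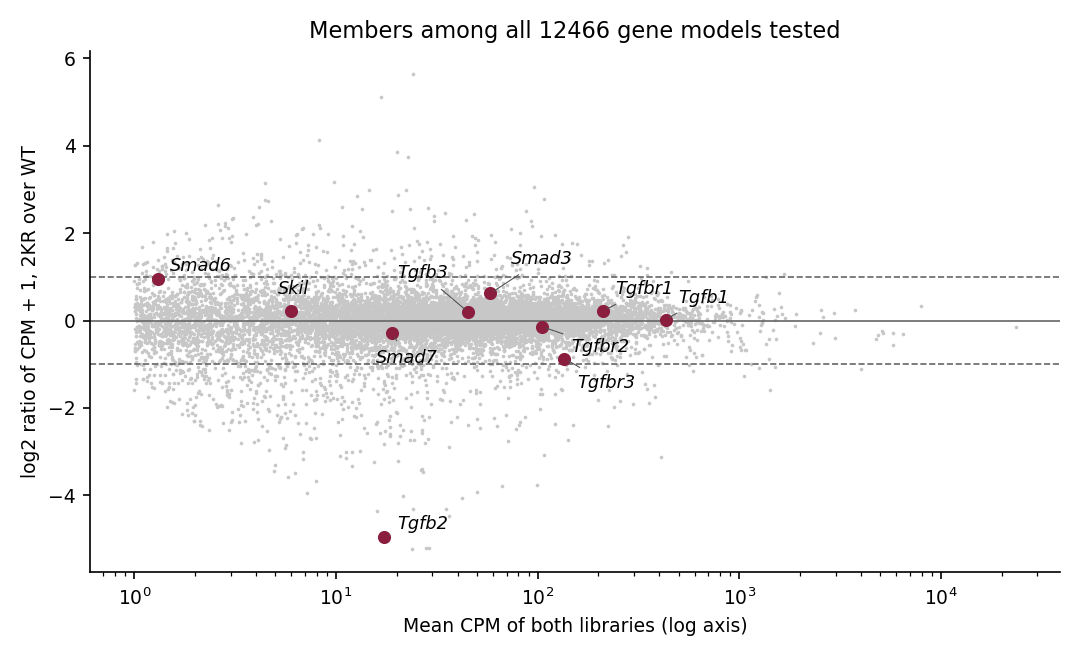
The log2 ratio of CPM + 1 (2KR over WT) against the mean CPM on a log axis, with the 10 genes in red over all 12466 models tested in grey and dashed lines at 2-fold. Tgfb2 lies at -4.96 near the lower edge of the cloud, and the other 9 lie between the dashed lines.

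The rest of the pathway was read through 5 lists of genes. Over the lists, 10 models were called lower in 2KR and 4 higher, and the medians below stand beside a median of 0.02 and 7.22% of models called in either direction over all models tested. A list is described by its counts, with no test.

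Genes of latency and activation, which store the ligand in the matrix or release it, had a median log2 ratio of -0.32 over 13 tested models, with 1 called lower, 1 called higher and 11 not called. Ltbp1, the latent TGF-beta binding protein that tethers the ligand to matrix, had 454 counts in WT and 1278 in 2KR and was 2.39-fold higher (2.14 to 2.66). Itgb5, an integrin subunit that can pair with alpha v to activate the ligand, had 357 and 144 counts and was 2.92-fold lower (2.40 to 3.57). The most abundant of the list were Itgb3, 1.63-fold lower (1.596 to 1.67) from 129.9 to 80.8 FPKM, and the membrane protease gene Mmp14, 1.25-fold lower (1.22 to 1.28). Fbn1, the fibrillin of matrix microfibrils, was 1.64-fold lower (1.52 to 1.77). Below the filter were 7 models, Itgb6, Itgb8 and Thbs1 among them.

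Ligands of the activin and BMP branches were almost absent: 15 of 24 models had 0 counts in both libraries, Inhba, Bmp2 and Bmp6 among them, and 5 were tested, with a median of 0.14 and 0 called. Gdf11 was the highest in FPKM, at 3.64 (WT) and 3.81 (2KR), and its ratio was 1.03 (0.875 to 1.22). Bmp1, a protease of procollagen that bears the family's name, had a ratio of 1.25 (1.02 to 1.53). Bmp8a had 56 and 124 counts, a ratio of 1.88 (1.36 to 2.62). Bmp7 and Bmp4 had ratios of 1.12 (0.847 to 1.498) and 0.922 (0.502 to 1.70), both with intervals that hold 1.

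Receptors of those branches had a median of -0.17 over 9 tested genes, with 2 called lower, 1 called higher and 6 not called. Acvr1, the type I BMP receptor ALK2, had 100 counts in WT and 4 in 2KR, 29.5-fold lower with limits of 11.2 and 110.2. Acvr1 passed the filter through its WT level, with 0.194 CPM in 2KR. Bmpr1a, the type I receptor ALK3, was 2.03-fold lower (1.89 to 2.19), from 16.1 to 8.01 FPKM, at the edge of the call with a log2 ratio of -1.01. Acvr2a, a type II activin receptor, was 1.85-fold lower (1.63 to 2.10) and not called, and its model overlaps Orc4 on the opposite strand (1039 and 1065 counts). Eng, the endothelial and stem cell co-receptor endoglin, had 32 and 129 counts and was 3.42-fold higher (2.31 to 5.21); its model overlaps Fpgs, on the opposite strand with 389 and 688 counts, so this ratio is uncertain. Acvr1b, the type I activin receptor ALK4 that signals through the same SMADs as TGFBR1, was at 30.9 and 29.98 FPKM, a ratio of 0.958 (0.906 to 1.01).

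Other SMADs, partners and negative regulators had a median of -0.09 over 28 tested genes, with 3 called lower and 0 higher. Fst, whose product follistatin traps activin, had 499 counts in WT and 44 in 2KR and was 13.4-fold lower (9.81 to 18.6), from 12.1 to 0.92 FPKM. Chrd, whose product chordin traps BMPs, was 3.66-fold lower (2.15 to 6.50), from 59 to 19 counts, and is uncertain because it overlaps Thpo on the opposite strand (19 and 11 counts). Zfyve9, the SMAD anchor SARA, was 2.43-fold lower (1.79 to 3.34), from 130 to 63 counts. Smad9, a SMAD of the BMP branch, had 32 and 14 counts and was 2.69-fold lower (1.397 to 5.46), under the call because of the pseudocount. Chrd and Smad9 passed the filter through their WT levels, with 0.922 and 0.679 CPM in 2KR. The most abundant were Fkbp1a, which encodes a binding protein of type I receptors, at a ratio of 1.20 (1.17 to 1.23), and Ldlrad4, which encodes an inhibitor of SMAD phosphorylation, at 1.32 (1.24 to 1.40).

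Genes known as targets of TGF-beta or BMP signals had a median of -0.19 over 28 tested genes, with 4 called lower, 2 called higher and 22 not called. Junb, an AP-1 factor with many other inducers, was 3.98-fold lower (3.79 to 4.19), from 6657 to 1970 counts. Spsb1, an adaptor that limits TGFBR2, was lower as well, with 501 and 226 counts, and so was Id1, a BMP target, with 304 and 152. Cdkn1c, the cell cycle inhibitor p57 of quiescent stem cells, had 54 and 311 counts and was 4.89-fold higher (3.65 to 6.65), from 1.09 to 5.40 FPKM. Foxp3, a factor of regulatory T cells, had 382 and 1297 counts and was 2.88-fold higher (2.57 to 3.24), a value made uncertain by overlap with Ccdc22 on the opposite strand (809 and 642 counts). Id2, the highest of the list in FPKM, was 1.64-fold lower (1.58 to 1.71), from 309 to 191, and the filament gene Vim had a ratio of 1.05 (1.03 to 1.07). Ctgf, Cyr61 and Snai2 had 0 counts in both libraries.

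**Figure D5:**
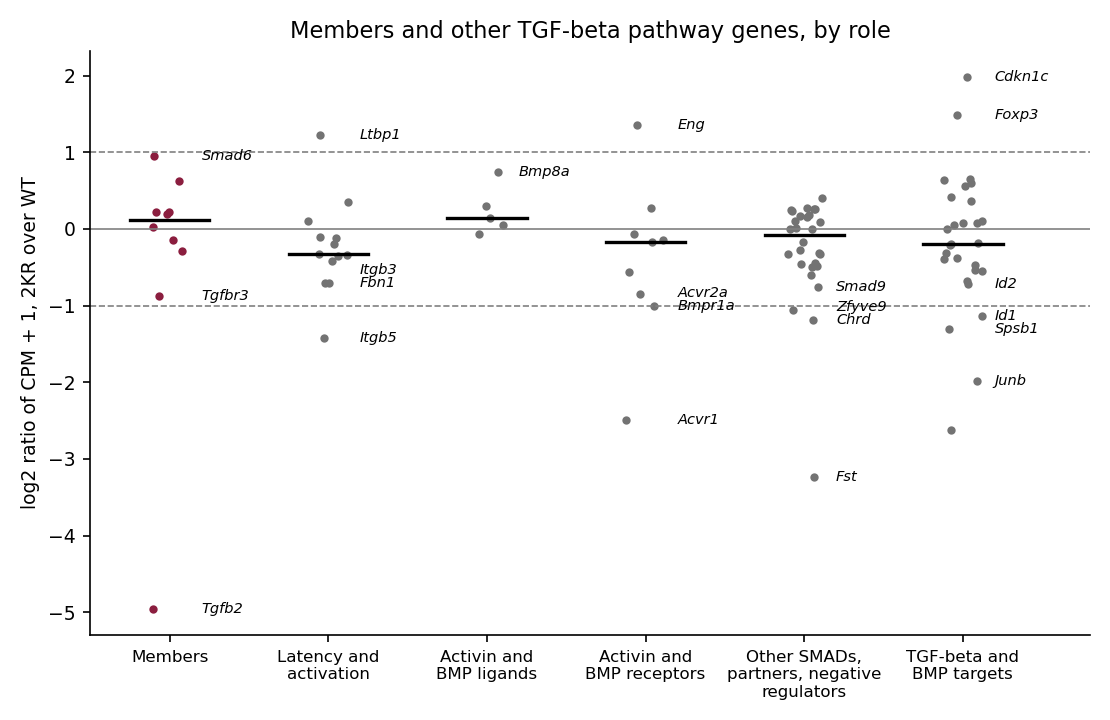
The log2 ratio of CPM + 1 (2KR over WT) of each tested gene, for the 10 genes (red) and 5 pathway lists (grey), with a black line at each median, dashed lines at 2-fold and names beside most genes from 0.7 in size. Medians lie between -0.32 and 0.14, and Tgfb2, Itgb5, Acvr1 and Fst are the lowest of their groups.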

How the data were processed

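HISAT2 2.0.4 and GRCm38 are listed in the submitters' processing notes; neither they nor the labels name the counting program, the annotation release or the strandedness. Each library came as 1 table in which the authors deposited the count and the FPKM of every gene model, per the file headers. Dividing the count by 1 fixed length and by its library's sum gave the deposited FPKM to within 0.1% for 15403 of the 15403 models counted in both. Counts were scaled by TMM in edgeR 4.0.16 (R 4.3.3; factors 0.993 for WT and 1.007 for 2KR) to CPM, and ratios used a pseudocount of 1 CPM and a filter at a mean of 1 CPM. Python 3.11.15, pandas 2.3.3, scipy 1.17.1 and matplotlib 3.10.9 served the later steps. Totals of 17606168 and 20462011 counts set the counting error given with each fold; the floor is 3 counts per library, or 0.172 CPM in WT and 0.146 in 2KR. Reads without molecular identifiers are not independent molecules. Lengths came from GENCODE M21 exons, in which 34344 identifiers matched.

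The genes, the lists and the motifs were chosen with earlier results of these data known. Genes were named by rule: the 10 genes, from each list up to 4 tested genes with the largest log2 ratio in size and the 2 highest in mean FPKM, the 3 nearest named models on each side of Tgfb2 and any model that overlaps one of the 10. Named outside it, after their values were seen, were Smad2, Smad4, Spsb1, Id1, Ctgf, Cyr61, Snai2, Inhba, Bmp2, Bmp6, Itgb6, Itgb8, Thbs1, Aagab, Zwilch, Fpgs, Orc4, Thpo, Mecom, Prkci, Phc3, Sec62, Mynn, Ccdc22, Gm36995, Ppp1r3fos and the marker genes. The size rule and the interval were run on simulated Poisson counts, which hold counting error only. Such counts cannot show how either behaves under variation between libraries. Alternatives were other pseudocounts, filters, scalings, FPKM and a 1.5-fold threshold. For 1 gene that the rule took from the targets, the result is not reported here.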

Additional observations from a re-analysis of the deposited data

How the results depend on the processing

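No paired analysis was possible because each form had 1 library, and for the same reason no library could be left out. The direction of the log2 ratio was kept for each of the 10 genes under the alternatives that tested it, with ranges of -7.14 to -2.23 for Tgfb2, -0.89 to -0.81 for Tgfbr3, 0.58 to 0.64 for Smad3 and 0.34 to 1.67 for Smad6. With FPKM, Smad6 and Skil did not pass the filter and the median of the remaining 8 genes was -0.037. With a filter of 5 CPM the median of 9 genes was 0.02, beside 0.11. The count of called genes among the 10 was 1 lower and 0 higher. It became 1 higher with a pseudocount of 0.1 CPM, and 2 lower and 2 higher at a 1.5-fold threshold.

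Over all models the count of 900 became 444 with a pseudocount of 5 CPM, 584 with a filter at a mean of 5 CPM and 416 with FPKM. It rose to 1160 with a pseudocount of 0.1 CPM, 950 with no filter and 2068 at 1.5-fold. For activin and BMP receptors, 3 called genes became 1 with a pseudocount of 5 CPM or a filter of 5 CPM, 0 with FPKM and 2 with library totals and no further scaling. For other SMADs and regulators, 3 became 1 with a pseudocount of 5 CPM, 1 with FPKM and 5 at 1.5-fold. For latency and activation, 2 became 1 with FPKM and 4 at 1.5-fold. At 1.5-fold the targets went from 6 to 11 and the activin and BMP ligands from 0 to 1. List medians moved too. That of the SMADs and regulators (-0.09) was 0.03 with FPKM, -0.0034 with a filter of 5 CPM and -0.16 with none. Without a filter, that of the targets (-0.19) was -0.013 and that of the ligands (0.14) was -0.07. That of the receptors (-0.17) was -0.57 with a filter of 5 CPM, -0.47 with FPKM and -0.27 with a pseudocount of 0.1 CPM. For latency and activation (-0.32) it was -0.21 with the mitochondrial chromosome left out of totals. The ligands' median was 0.09 with a pseudocount of 5 CPM. Fewer models pass a stricter filter by construction. The filter on FPKM, which depends on gene length, was passed by 11019 models, beside 12466 on CPM. Depth limits Tgfb2 in 2KR (3 counts) and Smad6 in WT (10 counts) most.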

Other observations

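Foxp3, a transcription factor of regulatory T cells, was read at 3.24 FPKM in WT and 9.45 in 2KR, beside 0 and 0 counts for the T cell gene Cd3e, 1 and 0 for Cd4, and 2 and 0 for Cd8a. Another T cell gene, Cd3g, was detected, with 72 counts (3.06 FPKM) in WT and 40 (1.46 FPKM) in 2KR. The Foxp3 model overlaps Ccdc22 on the opposite strand, which had 809 counts in WT and 642 in 2KR, a log2 ratio of -0.56 in the other direction. Foxp3 also overlaps Gm36995, on the opposite strand with 182 and 166 counts, and Ppp1r3fos, on the same strand with 69 and 33. Where the models overlap, reads of opposite strands cannot be told apart without strandedness. Strand would not separate Foxp3 from Ppp1r3fos.

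Skil lies 547 kb from Mecom, which had 0 counts in WT and 997 in 2KR. Skil itself had a ratio of 1.20 (0.913 to 1.57), and Prkci, the nearest model to it on that side, had 1.27 (1.11 to 1.45). The other tested models between Skil and Mecom had ratios below 1, with intervals that hold 1. These were Phc3 at 0.889 (0.787 to 1.004), Sec62 at 0.949 (0.893 to 1.009) and Mynn at 0.886 (0.775 to 1.014).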
